A study of Homo sapiens with 12 samples.

Results

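The subject here is the gene-by-gene difference between DAOY and ONS76 in the response to fluid shear stress (FSS), that is, the log2 fold change of FSS over static in DAOY minus the same fold change in ONS76. DAOY and ONS76 are established human medulloblastoma lines, and medulloblastoma is a tumour of the cerebellum that is bathed by cerebrospinal fluid. RNA-seq of polyA RNA covered 4 groups, each with 3 libraries called biological replicates: DAOY under FSS, static DAOY, ONS76 under FSS and static ONS76. All cells were labelled wild type and grew in 6-well plates under artificial cerebrospinal fluid. The FSS plates were turned at 100 rpm on an orbital shaker for 18 h and static plates were not, so that shear and any other effect of shaking cannot be told apart. Each line is a single line, so a difference between DAOY and ONS76 is a difference between these cell lines. A gene was a member when it had a mean of 5 CPM (counts per 1e+06 counts of the scaled library) or more in the FSS or the static group of DAOY and likewise of ONS76, and 9372 genes met this out of 19631 tested and 63241 in the table. The genes just inside the limit were PRDM8, CPT2 and KCNG2, at 5.002 CPM in the lower line, and those just outside were ATG16L2 at 4.99, FOXO6 at 4.989 and PYDC2-AS1 at 4.988 CPM.

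Cells sense flow at their surface through integrins, ion channels, the glycocalyx and the actin cortex. The signals run through MAP kinase cascades, calcium, YAP/TAZ and SRF to transcription factors such as AP-1 and the KLF family, and on to growth factors, secreted antagonists and matrix genes. Such responses are best described in endothelium, where they depend on the cell type and on the pattern of flow. A difference of responses asks whether a gene reacts to the same treatment in a different way in each line, and it is not affected by a constant difference in level between the lines.

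Library totals were 39.2 to 44.7 M counts (1 M is 1e+06) for DAOY under FSS, 38.1 to 41.0 M for static DAOY, 41.4 to 45.4 M for ONS76 under FSS and 39.4 to 49.3 M for static ONS76. Of the medulloblastoma and granule neuron markers, ZIC2 and PTCH1 were above 16 CPM in every library. OTX2 and EOMES were detected in DAOY alone, and SOX2 and NEUROD1 were at 0 in all 12. ZIC1 was at 24.1 to 28.9 CPM in DAOY and 0.558 to 1.17 CPM in ONS76. GLI1 and GLI2 were also higher in DAOY, MEIS1 was higher in ONS76, and ATOH1 was at most 0.0907 CPM. Fibroblast markers summed to 3790 to 4620 CPM in DAOY and 2.37 to 3.8 CPM in ONS76. Epithelium markers summed to 486 to 546 and 1090 to 1160 CPM. Static ONS76 replicates 1 and 2 stood apart in heart muscle transcripts. They held 34.6 and 13.8 CPM of the heart muscle myosin MYH6 and 21.4 and 7.36 CPM of MYH7, against at most 0.34 CPM in any other library, while the heart markers MYL7, TNNT2 and ACTC1 were at 0 everywhere. The sum of 8 heart muscle markers was 56 and 21.3 CPM in these libraries and 0.208 to 1.16 CPM in the other 10. The part of this in the results was not tested, and main counts are given with and without both libraries. In bulk RNA, fewer cells of a kind and less RNA per cell cannot be told apart.

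Responses differed between the lines in 2997 of the 9372 members, which is 32.0% (edgeR quasi-likelihood test, Benjamini-Hochberg adjusted p under 0.05). The difference was positive, higher in DAOY, in 1190 members (12.7%), and negative, lower in DAOY, in 1807 (19.3%). Over all 19631 tested genes the same test called 19.1% (8.34% higher in DAOY and 10.7% lower), and over the 10259 tested genes that were no members 7.24%. Most differences were small: the median absolute difference was 0.149 on the log2 scale over all members and 0.331 over the called ones. A difference of 2-fold or more was called in 32 members in the direction of DAOY (0.341%) and in 15 in the other (0.160%), against 1.79% and 0.907% of all tested genes. Without static ONS76 replicates 1 and 2, 864 members were called higher in DAOY and 1335 lower. That fit rests on 1 static ONS76 library, which is assumed to vary like the other groups. The library kept, replicate 3, was the least like the others of its group over all genes. The chi-square per degree of freedom between 2 libraries, lower for more alike ones, was 8.57 for replicates 1 and 3 and 7.21 for 2 and 3. It was 3.59 for replicates 1 and 2, the lowest of any pair within a group.

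The lines shared much of their response. Across members the response of DAOY and that of ONS76 had a Pearson r of 0.533 and a Spearman coefficient of 0.509, given as a description since genes are not independent replicates. Both lines changed in 2787 members, and 2395 of these moved the same way. The responses of DAOY were more spread, with an SD over members of 0.314 on the log2 scale against 0.248 in ONS76. Within DAOY 2317 members rose (24.7%) and 3045 fell (32.5%), and within ONS76 2030 rose (21.7%) and 2054 fell (21.9%). Over all tested genes 19.5% rose and 20.1% fell in DAOY, and 14.1% rose and 13.9% fell in ONS76.

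**Figure D1:**
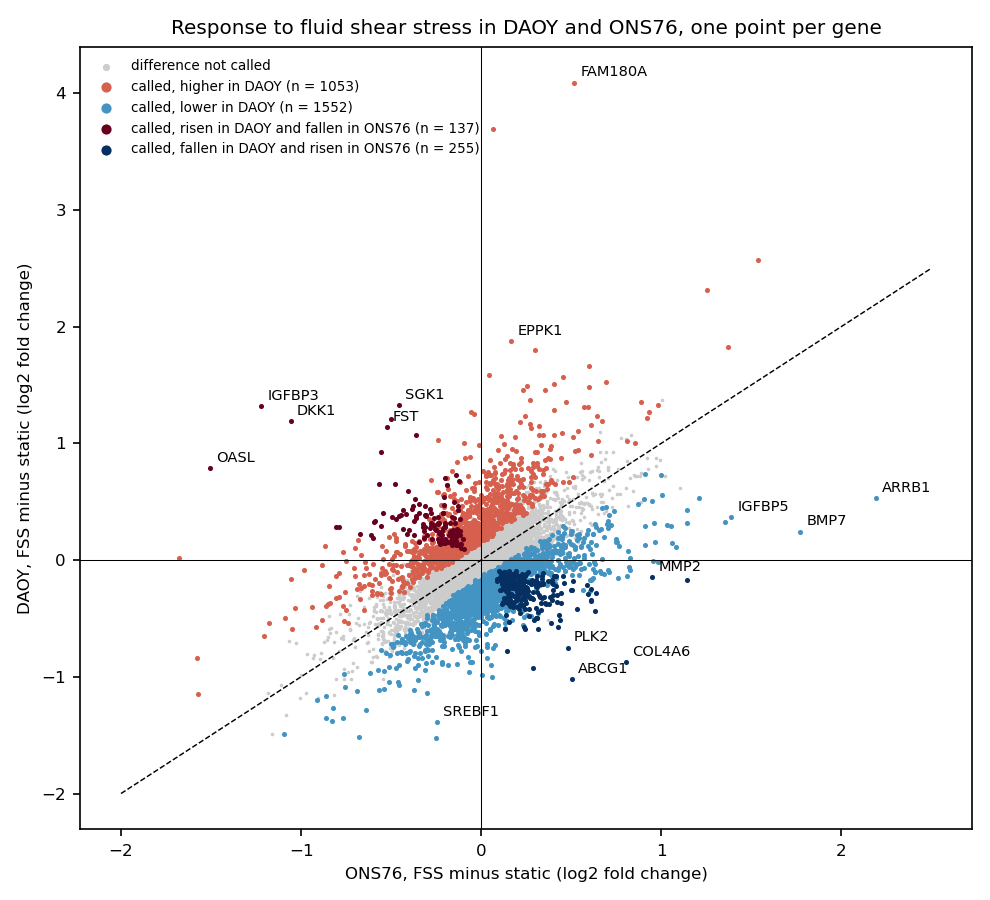
Log2 fold change of FSS over static in DAOY (vertical axis) against ONS76 (horizontal axis) for the 9372 members, 1 point per gene, with the dashed line marking equal responses. Coloured points are members whose difference was called, and the darkest points are the 137 and 255 that moved in opposite directions.

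The 2997 called members fell into groups by what each line did. The most frequent group, 818 members (27.3% of the called), fell in DAOY with no call in ONS76, at a median response of -0.308 in DAOY and 0.0115 in ONS76. A further 541 (18.1%) rose in DAOY alone, 352 (11.7%) rose in ONS76 alone and 247 (8.24%) fell in ONS76 alone. In the same-way groups the size was unequal: 273 fell more in DAOY, 175 rose more in DAOY, 71 rose more in ONS76 and 60 fell more in ONS76. In 68 the difference was called although neither line passed on its own.

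Opposite responses were called in 392 members: 137 rose in DAOY and fell in ONS76, and 255 fell in DAOY and rose in ONS76. In 348 of the 392 (88.8%), FSS and static libraries were apart in both lines, against 38.4% of all members and 93.9% of the 2787 that changed in both lines. Leaving out static ONS76 replicates 1 and 2 gave counts of 84 and 143. The genes named first below are those whose weaker response was largest.

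Promoters are shown for DKK1, FST and PLK2, which are among the opposite responders with the smallest p-values and have 1 entry each in the promoter table. Each is the 300 bases from 250 before to 50 after the RefSeq start (GRCh38.p14), 5′ to 3′ on the gene's strand. DKK1 lies at chr10:52314031-52314330 on the plus strand, FST at chr5:53480379-53480678 on the plus strand and PLK2 at chr5:58460037-58460336 on the minus strand. Capitals mark a match to the AP-1 motif TGANTCA.
DKK1: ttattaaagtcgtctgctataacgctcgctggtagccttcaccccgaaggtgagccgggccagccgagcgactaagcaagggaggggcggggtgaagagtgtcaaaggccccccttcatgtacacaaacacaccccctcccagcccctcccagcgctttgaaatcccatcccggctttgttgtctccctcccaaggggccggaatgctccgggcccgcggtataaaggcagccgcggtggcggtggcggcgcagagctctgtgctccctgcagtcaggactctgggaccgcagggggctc
FST: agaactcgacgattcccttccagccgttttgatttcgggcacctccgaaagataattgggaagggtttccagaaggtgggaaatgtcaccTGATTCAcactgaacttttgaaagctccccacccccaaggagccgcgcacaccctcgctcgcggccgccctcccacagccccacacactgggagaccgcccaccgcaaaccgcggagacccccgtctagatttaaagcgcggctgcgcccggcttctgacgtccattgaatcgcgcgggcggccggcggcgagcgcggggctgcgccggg
PLK2: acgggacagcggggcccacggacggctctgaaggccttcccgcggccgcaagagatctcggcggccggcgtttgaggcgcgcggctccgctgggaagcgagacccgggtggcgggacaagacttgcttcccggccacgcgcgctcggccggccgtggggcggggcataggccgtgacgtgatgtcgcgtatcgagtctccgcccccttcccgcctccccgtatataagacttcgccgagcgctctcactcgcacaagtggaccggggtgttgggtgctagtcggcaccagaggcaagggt
The FST window held 1 AP-1 match, which began 160 bases before the start, and those of DKK1 and PLK2 held none. AP-1 is the dimer of FOS and JUN family proteins that the immediate early response feeds. Searched on both strands, the motif was in 6.91% of 941 promoters of members called higher in DAOY, in 3.70% of 1485 of those called lower, in 4.11% of all 7624 members with a promoter in the table and in 7.76% of all 27305 promoters there. In all, 7 motifs were searched in these windows, and AP-1 was picked for display after the shares were seen. The E2F motif leaned the other way, in 2.55% of the higher set, 4.98% of the lower set, 4.11% of all members and 2.31% of all promoters. The cAMP response element was in 3.08% of the higher and 2.76% of the lower set, the sterol response element in 1.38% and 0.875%, the heat shock element in 0.425% and 0.135%, the NF-kB motif in 0.213% and 0.337%, and the antioxidant response element in 15.4% and 16.8%. Over all members these 5 were in 3.62%, 0.944%, 0.262%, 0.328% and 15.5%, and over all promoters in 1.98%, 1.15%, 0.487%, 0.355% and 13.6%. The shares are descriptions of the letters in a window and not of binding.

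Among secreted proteins, IGFBP3 and DKK1 turned in opposite directions. IGFBP3 (ENSG00000146674, chromosome 7, 45912245 to 45921874 in GRCh38) encodes a binding protein that holds insulin-like growth factors away from their receptor. It stood at 102, 105 and 103 CPM in DAOY under FSS against 42.5, 40.0 and 41.7 CPM in static DAOY, and at 1.90, 2.01 and 2.92 CPM in ONS76 under FSS against 4.65, 5.59 and 5.80 CPM in static ONS76. Every FSS library lay above every static one in DAOY and below every static one in ONS76. The response was 1.32 in DAOY and -1.22 in ONS76, so that the difference was 2.54 (SE 0.13, adjusted p = 2.481e-15, edgeR). IGFBP3 met the limit of 5 CPM in ONS76 through the static group alone, at a mean of 5.345 CPM against 2.277 CPM under FSS.

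DKK1 (ENSG00000107984, chromosome 10, 52314296 to 52318042), a secreted Wnt antagonist that binds the LRP co-receptors, stood at 38.3, 40.5 and 40.7 CPM in DAOY under FSS against 19.9, 16.5 and 15.8 CPM in static DAOY. In ONS76 it stood at 48.4, 51.0 and 57.7 CPM under FSS against 107, 107 and 114 CPM in static libraries. The lines were nearer to each other under FSS than in static plates. The difference was 2.25 (SE 0.091, adjusted p = 8.05e-18, edgeR), the smallest adjusted p of all members. FST (ENSG00000134363, chromosome 5, 53480409 to 53487134), which encodes follistatin, a secreted trap for activins, rose to 20.9, 21.4 and 23.1 CPM in DAOY under FSS, against 9.97, 10.5 and 9.19 CPM in static DAOY. It fell in ONS76, where it was much more abundant, to 372, 383 and 400 CPM under FSS, against 551, 547 and 565 CPM in static libraries. The FST difference was 1.67 (SE 0.069, adjusted p = 9.832e-18, edgeR).

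OASL, an interferon-induced protein of the 2′-5′-oligoadenylate synthetase family, stood at 19.6, 13.5 and 14.96 CPM in DAOY under FSS against 8.65, 7.94 and 11.2 CPM in static DAOY. In ONS76 it stood at 3.46, 3.16 and 4.64 CPM under FSS against 10.0, 10.9 and 11.1 CPM in static libraries. The static lines were near each other and parted under FSS, with a difference of 2.29 (SE 0.19, adjusted p = 1.756e-10, edgeR). OASL met the limit of 5 CPM in ONS76 through the static group alone, at a mean of 10.65 CPM against 3.754 CPM under FSS. CEBPD, a C/EBP transcription factor of the acute phase response, differed by 1.48 (SE 0.14), and the receptor-type tyrosine phosphatase gene PTPRH by 1.23 (SE 0.16). Both rose in DAOY and fell in ONS76, with no overlap of FSS and static libraries in either line. PTPRH lay near the CPM limit: like IGFBP3, it was a member with an adjusted p in 23 alternatives, against 25 for PLK2, which met every member rule.

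In the other direction, PLK2 (ENSG00000145632, chromosome 5, 58453982 to 58460260), a polo-like kinase that responds to stress and serum, fell to 361, 358 and 349 CPM in DAOY under FSS, against 587, 592 and 617 CPM in static DAOY. In ONS76 it rose to 98.8, 99.5 and 96.3 CPM under FSS, against 70.8, 72.3 and 67.9 CPM in static libraries. The libraries of a group were close to each other and the difference was -1.23 (SE 0.053, adjusted p = 1.795e-17, edgeR). COL4A6 (ENSG00000197565, chromosome X, 108155607 to 108439497), a basement membrane collagen chain, stood at 5.44, 6.78 and 6.59 CPM in DAOY under FSS against 11.3, 10.8 and 12.6 CPM in static DAOY. In ONS76 it stood at 186, 177 and 166 CPM under FSS against 101, 108 and 94.9 CPM in static libraries. Its difference of -1.68 (SE 0.099, adjusted p = 4.221e-14, edgeR) was the most negative of all called members under the rule for named genes.

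ABCG1, a transporter that moves cholesterol out of cells, fell in DAOY to 3.83, 4.04 and 5.97 CPM under FSS, against 8.81, 9.12 and 10.1 CPM in static libraries. It rose in ONS76 to 76.8, 82.4 and 82.3 CPM under FSS, against 55.4, 58.0 and 57.3 CPM in static libraries, and the difference was -1.52 (SE 0.12, adjusted p = 5.563e-11, edgeR). ABCG1 met the limit of 5 CPM in DAOY through the static group alone. ST3GAL5, the sialyltransferase that makes the ganglioside GM3, differed by -1.07 (SE 0.12), and SEMA3C, a secreted semaphorin, by -0.95 (SE 0.062). SYNE2, a giant nuclear envelope protein that links the nucleus to actin, differed by -0.91 (SE 0.17). Its FSS and static libraries overlapped in ONS76, at 65.6, 107 and 84.0 CPM under FSS against 61.0, 67.4 and 61.9 CPM in static libraries.

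**Figure D2:**
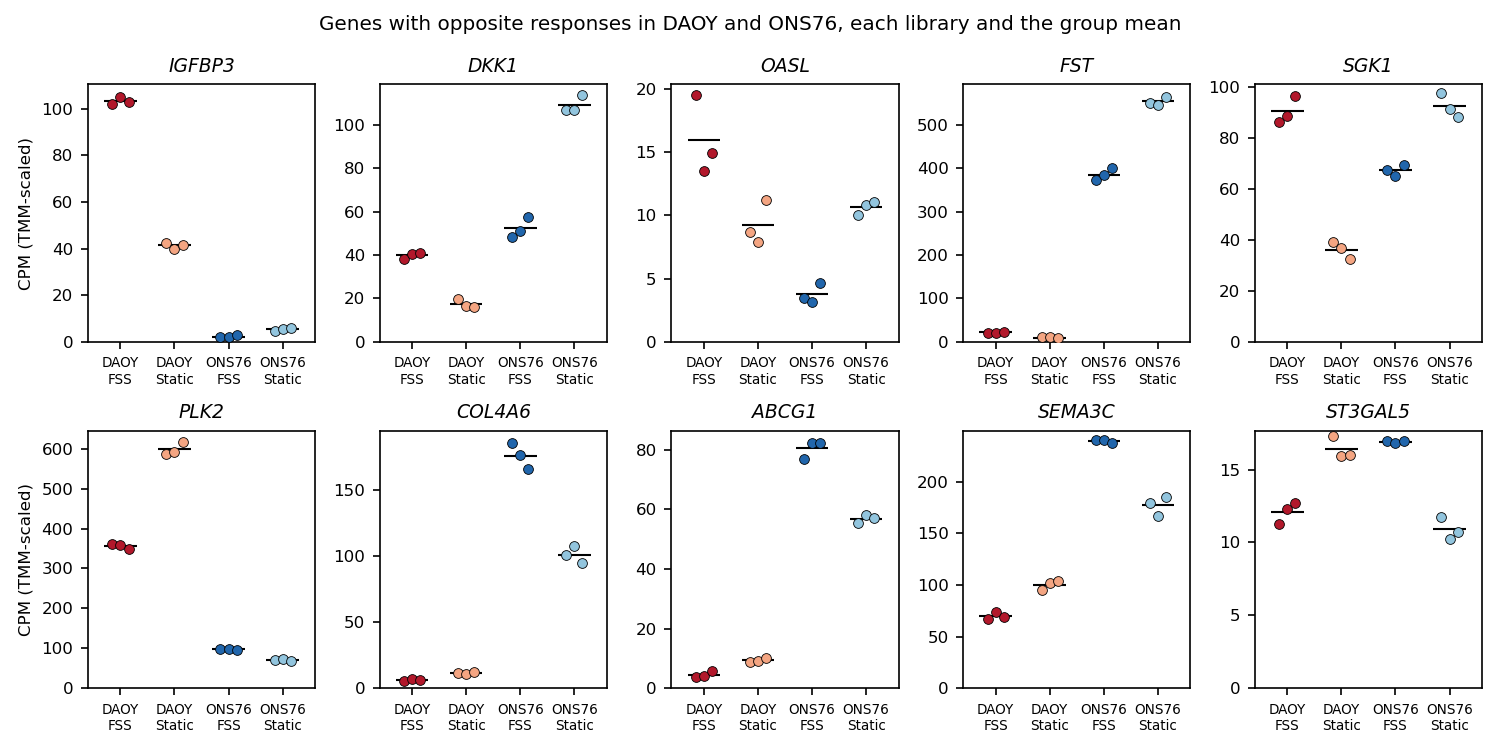
CPM of 10 genes in each of the 3 libraries (points) of DAOY under FSS, static DAOY, ONS76 under FSS and static ONS76, with the group mean as a bar and each axis from 0. IGFBP3, DKK1, OASL, FST and SGK1 are higher under FSS in DAOY and lower under FSS in ONS76, and the other 5 are the reverse.

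Among the largest positive differences were genes whose change lay almost wholly in DAOY. FAM180A (chromosome 7, 135728348 to 135748846), a little studied secreted protein gene, was at 7.73, 6.52 and 7.31 CPM in DAOY under FSS against 0.513, 0.408 and 0.330 CPM in static DAOY. In ONS76 it was at 15.6, 16.2 and 16.8 CPM under FSS against 11.3, 10.4 and 12.2 CPM in static libraries. It rose in both lines, by 4.09 in DAOY and 0.52 in ONS76, and its difference of 3.57 (SE 0.20, adjusted p = 9.418e-15, edgeR) was the largest among members with a symbol. ENSG00000286966, which has no symbol in the files, had 3.63 and rose in DAOY alone. FAM180A was under 1 CPM in static DAOY, so the size of its value rests on few counts, and it met the limit of 5 CPM in DAOY through the FSS group alone. Among the 12 genes named for the largest positive difference, 5 had a group mean under 5 CPM: FAM180A, IGFBP3, OASL, TMEM158 and C3. Among the 12 named for the largest negative difference, 5 did too: ARRB1, BMP7, ABCG1, NEO1 and TMEM154.

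SGK1 (chromosome 6, 134169246 to 134318112), a kinase that raises sodium transport and that serum, glucocorticoids and cell volume induce, was at 86.6, 88.6 and 96.6 CPM in DAOY under FSS against 39.1, 36.8 and 32.6 CPM in static DAOY. It was at 67.7, 65.3 and 69.6 CPM in ONS76 under FSS against 97.9, 91.5 and 88.3 CPM in static ONS76. It rose in DAOY and fell in ONS76, and the difference was 1.78 (SE 0.077, adjusted p = 1.795e-17, edgeR). EPPK1, a plakin that binds keratin filaments, rose to 51.9, 56.1 and 58.6 CPM in DAOY under FSS, against 13.1, 18.6 and 13.8 CPM in static DAOY. In ONS76 it rose by 0.17, to 1193, 1230 and 1140 CPM under FSS against 1081, 1039 and 1057 CPM in static libraries, and the difference was 1.71 (SE 0.090).

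FOXA2, a forkhead pioneer factor, rose in DAOY to 16.1, 15.3 and 16.4 CPM under FSS, against 5.67, 5.15 and 5.14 CPM in static libraries. In ONS76 its response was 0.04 with an adjusted p of 0.4879 (edgeR), and its difference was 1.54 (SE 0.078). The tight junction gene CLDN4 rose by 1.80 in DAOY and 0.30 in ONS76, and KCNJ2, an inward-rectifier potassium channel, by 1.49 and 0.25. TMEM158, a Ras-induced membrane protein gene, and complement C3 rose in DAOY and fell in ONS76. Their differences were 1.71 (SE 0.15) and 1.43 (SE 0.17). Both genes met the limit of 5 CPM in DAOY through the FSS group alone. Their means there were 5.444 and 7.972 CPM, against 2.346 and 3.791 CPM in static DAOY.

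Several of the largest negative differences belonged to genes that rose mainly in ONS76. The member rule takes the higher of FSS and static in each line. Near the limit it thus favours large changes, rises and falls alike. ARRB1, BMP7 and NEO1 met the limit of 5 CPM in ONS76 through the FSS group alone. With 5 CPM asked of all 4 groups, members called 2-fold or more numbered 15 higher in DAOY and 9 lower, in place of 32 and 15. ARRB1, the gene of beta-arrestin 1 that uncouples G protein-coupled receptors, was at 16.2, 17.3 and 19.8 CPM in DAOY under FSS against 12.8, 12.1 and 12.0 CPM in static DAOY. It was at 8.05, 10.8 and 11.0 CPM in ONS76 under FSS against 2.41, 2.08 and 2.01 CPM in static ONS76. The gene rose in both lines and the gap between them narrowed under FSS, with a difference of -1.66 (SE 0.17, adjusted p = 7.89e-09, edgeR). BMP7, a secreted bone morphogenetic protein, and NEO1, a receptor for netrins and repulsive guidance molecules, followed with differences of -1.53 (SE 0.14) and -1.31 (SE 0.11).

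MMP2, the secreted gelatinase that cuts basement membrane collagen, was at 283, 281 and 281 CPM in DAOY under FSS against 315, 300.4 and 321 CPM in static DAOY. It was at 60.5, 61.8 and 59.8 CPM in ONS76 under FSS against 30.5, 34.8 and 29.1 CPM in static ONS76. The DAOY fall was small and the ONS76 rise near 2-fold, and the difference was -1.10 (SE 0.065, adjusted p = 5.273e-14, edgeR). IGFBP5, another insulin-like growth factor binding protein and a very abundant transcript in DAOY, rose in both lines, by 0.37 in DAOY and 1.39 in ONS76. C1QTNF1, a secreted C1q and TNF related protein gene, did likewise, at 0.33 and 1.36.

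SREBF1 (chromosome 17, 17810399 to 17837002), the transcription factor gene that drives fatty acid synthesis, fell in both lines but mostly in DAOY. It was at 48.5, 51.9 and 50.4 CPM in DAOY under FSS against 128, 132 and 135 CPM in static DAOY, and at 268, 250.3 and 266 CPM in ONS76 under FSS against 312, 309 and 308 CPM in static ONS76. The difference was -1.14 (SE 0.056, adjusted p = 3.844e-16, edgeR). TMEM154, a membrane protein gene, fell by 1.52 in DAOY and by 0.25 in ONS76, and met the limit of 5 CPM in DAOY through the static group alone. LIPG, the endothelial lipase, fell in DAOY and rose in ONS76, with a difference of -1.21 (SE 0.099).

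GAGE2A, a cancer-testis antigen, also met the rule, at 95.3, 92.4 and 87.7 CPM in DAOY under FSS against 96.6, 143 and 311 CPM in static DAOY. One static DAOY library stood far above the others, and the difference of -1.06 (SE 0.28) was not called in DESeq2 or on TPM. Without static DAOY replicate 3 it was -0.44. The gene belongs to a family of near-identical copies, so its counts are uncertain.

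**Figure D3:**
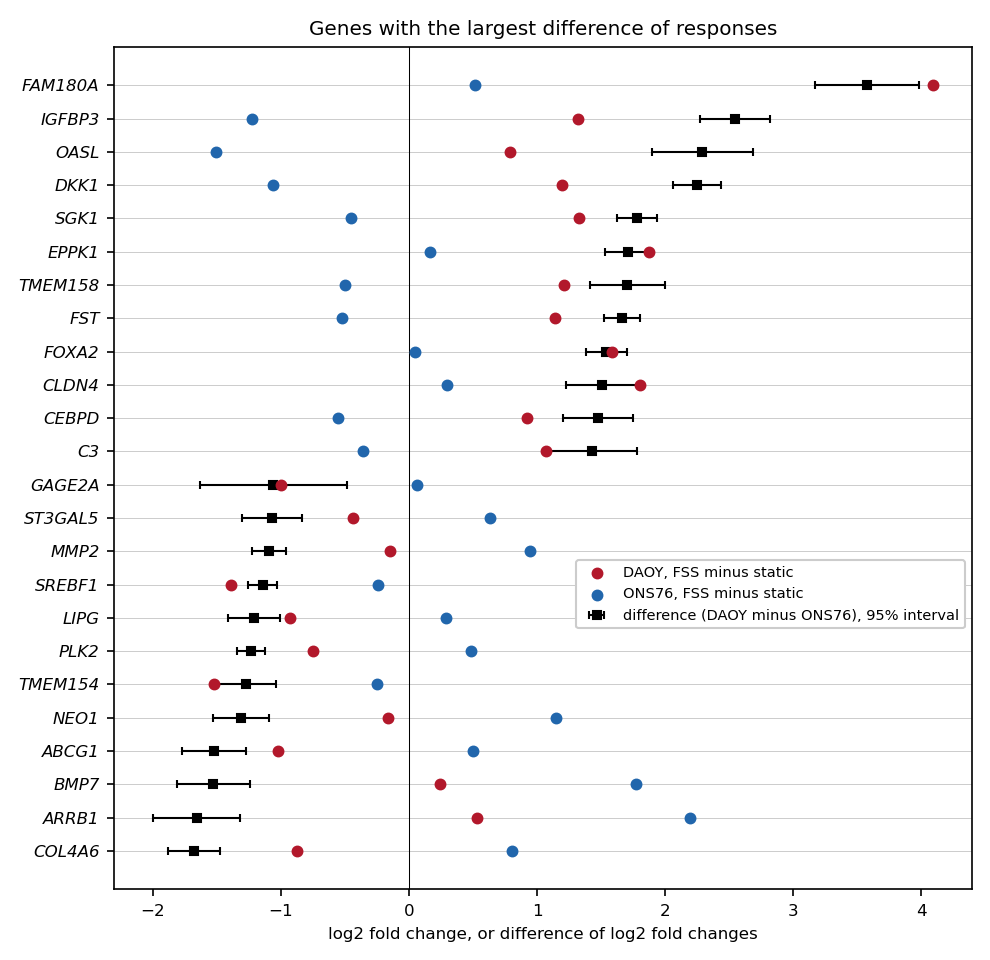
The 12 most positive and 12 most negative called differences among members that have a symbol and whose FSS and static libraries were apart in at least 1 line (black squares with 95% intervals), with the response of DAOY (red) and of ONS76 (blue) for the same gene, all on the log2 scale. The squares run from 3.57 for FAM180A to -1.68 for COL4A6, and red and blue points lie on either side of 0 for the opposite responders.

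Some strong responses were alike in both lines. Of 220 members that changed by 0.5 or more on the log2 scale in the same direction in both lines, 34 had a 95% interval of the difference within 0.25 of 0. SPC24, a kinetochore subunit, fell to 11.5, 11.6 and 13.0 CPM in DAOY under FSS, against 24.7, 22.5 and 24.3 CPM in static DAOY, and to 9.55, 10.8 and 9.94 CPM in ONS76 under FSS, against 21.5, 18.7 and 20.5 CPM in static ONS76. The difference was 0.01 with an interval of -0.22 to 0.24. MYBL2, a cell cycle transcription factor, IDH2, a mitochondrial isocitrate dehydrogenase, and NIPSNAP2 and PDLIM7 also fell by like amounts, with differences of 0.09, 0.01, 0.12 and -0.05. CHORDC1, an HSP90 co-chaperone, rose in both lines, by 0.80 in DAOY and 0.70 in ONS76. Over all members, 2890 (30.8%) had an interval within 0.25 of 0.

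The gene lists that follow were read by counts against 12.7% of all members called higher in DAOY and 19.3% called lower, and against a median difference of -0.027 over all members. In 21 of the 44 lists a count of calls moved by over 1.5 times when 1 library was left out, and in 7 of these a count of 5 or more did. Of 20 MAP kinase feedback genes, which damp or report ERK signalling, 11 were called higher in DAOY and 2 lower, at a median difference of 0.26. The phosphatase DUSP10 rose in DAOY to 12.1, 10.3 and 12.0 CPM under FSS, against 5.62, 5.15 and 4.93 CPM in static libraries, while ONS76 was at 9.16, 8.19 and 8.45 CPM under FSS against 6.67, 7.78 and 6.92 CPM in static libraries. Its difference was 0.86 (SE 0.15). The ephrin receptor EPHA2 differed by 0.75, the phosphatase DUSP5 by 0.73, cyclin D1 (CCND1) by 0.71 and PHLDA1 by 0.69. In DAOY all 5 rose, and in ONS76 EPHA2 was the one that passed the test, at 0.19. ETV1 and SPRED1 were the 2 called lower. The counts were 9 and 2 with static ONS76 replicates 1 and 2 left out.

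Of 21 immediate early genes, 11 were called higher in DAOY and 1, JUND, lower, with a median of 0.24. The 9 not called held the AP-1 genes FOS and JUN, at 0.28 and 0.07, and also MYC at 0.15 and SRF at 0.05. CCN1, a matricellular protein and also a YAP/TAZ target, stood at 345, 322 and 341 CPM in DAOY under FSS against 279, 273 and 275 CPM in static DAOY, and at 9.00, 11.6 and 10.4 CPM in ONS76 under FSS against 16.8, 19.2 and 17.8 CPM in static ONS76. It rose in DAOY and fell in ONS76, with a difference of 1.07 (SE 0.082). The mRNA-decay factor ZFP36 differed by 0.89 and moved in opposite directions too. EGR1, an early zinc finger factor, fell by 0.89 in ONS76 and did not pass in DAOY, at -0.04. Of 15 KLF and other shear-responsive transcription factors, 8 were higher in DAOY, among them KLF5 at 0.96 (SE 0.083), KLF10 at 0.69 and KLF2 at 0.56, and KLF15 was lower at -0.78.

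Of 22 YAP/TAZ targets, which report nuclear YAP in stretched or spread cells, 10 were called higher in DAOY and 2 lower, at a median of 0.15. Besides IGFBP3 and CCN1 these held GADD45B at 0.78 and the angiomotin-like AMOTL2 at 0.59. YAP1 itself was lower, at -0.21. Of 23 actin and SRF genes, 8 were higher and 5 lower, or 3 lower without static DAOY replicate 1 or 3, ONS76 FSS replicate 1 or static ONS76 replicate 2. RND3, an atypical small GTPase that loosens actin stress fibres, rose in DAOY to 84.4, 78.2 and 83.3 CPM under FSS, against 47.9, 47.2 and 38.6 CPM in static libraries. It did not change detectably in ONS76 (-0.06), and the difference was 0.94 (SE 0.085). MYLK, the myosin light chain kinase, fell in both lines and more in DAOY, by 1.28 against 0.64 in ONS76.

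TPM1, a tropomyosin, was called at 1.69 (SE 0.40), but its static ONS76 libraries stood at 95.7, 39.1 and 12.0 CPM against 15.8, 15.7 and 15.2 CPM in ONS76 under FSS. The high values were in the libraries with heart myosin counts, and without both libraries the difference was -0.37. It was 0.72 without static ONS76 replicate 1, and DESeq2 did not call it. DAOY was at 324, 341 and 315 CPM under FSS against 333, 310.4 and 328 CPM in static libraries.

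Notch genes, receptors and ligands of neighbouring cells, were called higher in DAOY in 6 of 11 members and lower in 1. The ligand DLL1 stood at 18.7, 16.7 and 19.9 CPM in DAOY under FSS against 9.68, 8.94 and 10.2 CPM in static DAOY, and at 35.4, 31.8 and 35.6 CPM in ONS76 under FSS against 31.1, 30.9 and 34.3 CPM in static ONS76. Its groups overlapped in ONS76 alone, and the difference was 0.85 (SE 0.11). The feedback inhibitor NRARP differed by 0.68 and JAG2 by 0.45, while the receptor NOTCH2 differed by -0.55. Of 13 NF-kB and cytokine genes 5 were higher, led by the chemokine CXCL8 at 0.87 (SE 0.17), and none was lower, and without DAOY FSS replicate 2 the count was 3. Of 12 interferon-stimulated genes 8 were higher and none lower, at a median of 0.44. Beyond OASL, ISG15 stood at 17.9, 17.5 and 17.7 CPM in DAOY under FSS against 16.8, 14.1 and 16.3 CPM in static DAOY. In ONS76 it stood at 16.6, 14.3 and 16.4 CPM under FSS against 23.7, 27.5 and 24.6 CPM in static ONS76. Of the 12, 9 fell in ONS76 and none rose, at a median response of -0.59. In DAOY 2 rose and 3 fell, at a median of 0.049. In the fit that leaves out static ONS76 replicates 1 and 2, 4 of the 12 were called higher, and so were 4 of the 11 Notch genes, whose median was 0.17 there and 0.33 over all libraries.

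Growth factor genes leaned to DAOY. Of 19 angiogenic and growth factor genes 8 were higher and 2 lower. The platelet-derived growth factor PDGFA was at 23.2, 19.8 and 21.6 CPM in DAOY under FSS against 12.6, 11.0 and 11.7 CPM in static DAOY, and at 52.97, 50.2 and 51.8 CPM in ONS76 under FSS against 55.8, 53.3 and 55.7 CPM in static ONS76. Its difference was 0.96 (SE 0.087), and that of the ligand NRG1 was 0.84. Of 13 insulin-like growth factor genes 7 were higher and 3 lower. The adaptors IRS2 and IRS1 differed by 0.71 and 0.52, and IGFBP5 by -1.02 (SE 0.078), against 2.54 for IGFBP3.

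BMP genes were split, with 3 of 19 higher in DAOY and 7 lower. The ligand BMP6 differed by 1.22 (SE 0.18), while BMP7 differed by -1.53. Of the direct BMP targets, ID3 stood at 80.2, 79.5 and 81.4 CPM in DAOY under FSS against 98.6, 92.1 and 103 CPM in static DAOY, and at 67.1, 72.0 and 66.4 CPM in ONS76 under FSS against 51.1, 46.6 and 53.1 CPM in static ONS76. It fell in DAOY and rose in ONS76, with a difference of -0.73 (SE 0.070). ID2 rose in ONS76 by 0.63 and had a difference of -0.73 (SE 0.16). TGF-beta genes were called 5 higher and 5 lower of 22, and 3 higher without static DAOY replicate 2, ONS76 FSS replicate 3 or static ONS76 replicate 1 or 3. THBS1, an activator of latent TGF-beta, differed by -0.74 (SE 0.073). The latent TGF-beta binding proteins LTBP1 and LTBP3 were lower, at -0.56 and -0.35. LTBP2 was called at -0.35, but it ranged from -0.47 to -0.12 over the alternatives and lost its call in 4 of 24. Without static ONS76 replicate 1 it was -0.25 and not called. Of 12 Wnt genes 3 were higher and 3 lower, and LGR4 and LRP5 were among the lower at -0.54 and -0.36.

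Matrix genes leaned the other way. Of 25 collagen, laminin and matrix genes, 12 were called lower in DAOY and 4 higher, with a median of -0.17. VCAN, the proteoglycan versican, was at 30.9, 36.3 and 34.4 CPM in DAOY under FSS against 23.2, 24.4 and 22.8 CPM in static DAOY, and at 21.1, 23.2 and 22.9 CPM in ONS76 under FSS against 9.52, 10.4 and 9.15 CPM in static ONS76. It rose in both lines and more in ONS76, with a difference of -0.68 (SE 0.10). Perlecan (HSPG2), fibrillin 1 (FBN1), laminin beta 1 (LAMB1) and fibronectin (FN1) fell in DAOY and rose in ONS76, with differences of -0.69, -0.51, -0.47 and -0.42. LAMB3, a chain of the epithelial laminin, differed by 0.61 (SE 0.082). Of 17 proteases and inhibitors, 8 were lower, led by MMP2, and 5 higher, led by ADAMTS12 at 1.29 (SE 0.15) and SERPINE2 at 0.88. These counts were 4 and 4 with static ONS76 replicates 1 and 2 left out. Of 15 integrins, cadherins and claudins 5 were higher and 2 lower, with the integrin chain ITGA1 at -0.91.

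Of 22 fatty acid synthesis genes 12 were called lower in DAOY and 1, DGAT1, higher, at a median of -0.32. SCD, the stearoyl-CoA desaturase, fell to 625, 632 and 599 CPM in DAOY under FSS, against 922, 930 and 935 CPM in static DAOY. It rose to 903, 908 and 885 CPM in ONS76 under FSS, against 705, 712 and 753 CPM in static ONS76. The groups did not overlap in either line and the difference was -0.90 (SE 0.050). The desaturase FADS2 differed by -0.67, the acyl-CoA synthetase ACSL1 by -0.60, acetyl-CoA carboxylase (ACACA) by -0.54 and fatty acid synthase (FASN) by -0.34. Of the 22, 12 fell in DAOY and 3 rose, while 3 fell in ONS76 and 9 rose.

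Of 28 cholesterol genes 13 were called lower and 1, PMVK, higher, at a median of -0.18. The PMVK call, at 0.29, ended without DAOY FSS replicate 1 (0.25) or static ONS76 replicate 3 (0.22). Mevalonate kinase (MVK) stood at 10.5, 11.3 and 9.58 CPM in DAOY under FSS against 19.8, 18.7 and 20.3 CPM in static DAOY, and at 18.3, 17.0 and 19.2 CPM in ONS76 under FSS against 16.8, 17.4 and 18.2 CPM in static ONS76. Its groups overlapped in ONS76, and the difference was -0.96 (SE 0.11). The exporters ABCG1 and ABCA1 differed by -1.52 and -0.78, and the synthesis genes FDFT1, LSS and DHCR7 by -0.55, -0.53 and -0.44. Leaving out static ONS76 replicates 1 and 2, 12 fatty acid and 12 cholesterol genes were called lower and 1 of each higher.

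Of 23 endoplasmic reticulum (ER) chaperone and unfolded protein response genes, 15 were called lower in DAOY and 2 higher, with a median difference of -0.21. In ONS76 17 of the 23 rose and 1 fell, and in DAOY 5 rose and 6 fell. HSPA5, the ER chaperone BiP, was at 740, 726 and 748 CPM in DAOY under FSS against 781, 708 and 720 CPM in static DAOY, and at 650, 676 and 679 CPM in ONS76 under FSS against 477, 497 and 517 CPM in static ONS76. The groups overlapped in DAOY and were apart in ONS76, with a difference of -0.42 (SE 0.055). The disulfide isomerase PDIA4, which fell in DAOY and rose in ONS76, differed by -0.54 (SE 0.055), and the transcription factor XBP1 by -0.49 (SE 0.060). DNAJB9 and SEC61B were the 2 higher. The SEC61B value of 0.19 lost its call, at 0.14 to 0.19, in 7 of the 12 fits that left out 1 library, namely those without DAOY FSS replicate 3, static DAOY replicates 1 and 3, ONS76 FSS replicates 1 and 2, and static ONS76 replicates 1 and 3. With static ONS76 replicates 1 and 2 left out, 9 were called lower and 1 higher.

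**Figure D4:**
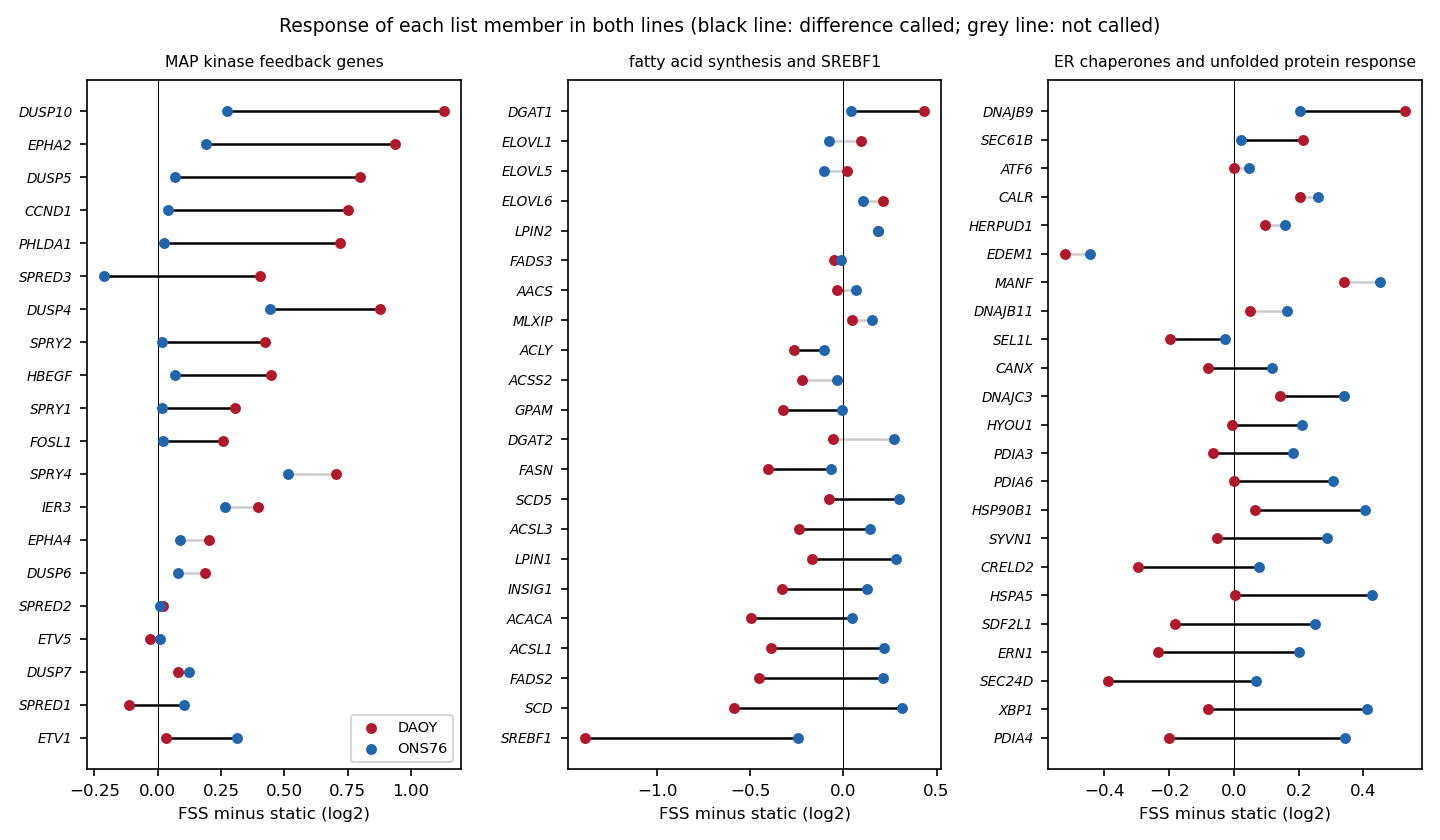
Log2 fold change of FSS over static in DAOY (red) and ONS76 (blue) for each member of 3 gene lists (MAP kinase feedback, fatty acid synthesis and ER chaperones), joined by a black line where the difference was called and a grey line where it was not. Red points lie to the right of blue for most MAP kinase feedback genes and to the left for most fatty acid synthesis and ER genes.

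Cytosolic heat shock chaperones rose in both lines, 16 of 21 in DAOY and 17 of 21 in ONS76, and 6 differed in the direction of DAOY and 2 in the other. HSPA1A rose by 1.27 in DAOY and 0.93 in ONS76, and HSPH1 by 1.32 and 0.98. HSPA1A and HSPA1B are near-identical copies, so reads may be split between them. Of 22 NRF2 targets 9 were higher and 5 lower, with thioredoxin reductase (TXNRD1) at 0.65. Of 23 ATF4 amino acid genes 6 were higher, led by the transporter subunit SLC3A2 at 0.69, and 3 lower. Of 18 sodium pump and osmolyte genes 7 were higher, with the pump subunit ATP1B1 at 0.59 after SGK1, and 4 lower, or 1 lower without static ONS76 replicate 3 and 2 without DAOY FSS replicate 2 or static ONS76 replicate 2. Of 30 glycolysis, glucose transport and hypoxia genes 7 were higher, led by adrenomedullin (ADM) at 1.27 and the kinase PFKFB3 at 0.80, and 4 lower.

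Cell cycle genes fell in both lines and differed in part. Of 41 G1/S and replication genes 37 fell in DAOY and 35 in ONS76, and 11 were called lower in DAOY in the difference, with 1 higher. DNA ligase 1 (LIG1) stood at 19.6, 18.2 and 17.5 CPM in DAOY under FSS against 51.1, 50.3 and 56.6 CPM in static DAOY, and at 21.7, 17.4 and 20.8 CPM in ONS76 under FSS against 32.6, 31.8 and 31.4 CPM in static ONS76. It fell in both, and more in DAOY, with a difference of -0.84 (SE 0.097). Thymidylate synthase (TYMS) differed by -0.67 and MCM5 by -0.45. Of 22 homologous recombination and Fanconi genes 6 were lower and none higher, and 1 was lower without static ONS76 replicates 1 and 2. With static DAOY replicate 1 or static ONS76 replicate 2 left out alone, 3 were lower.

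Of 40 G2/M genes, 33 fell in DAOY and 39 in ONS76, and 11 were called higher in DAOY in the difference, with 2 lower. Without DAOY FSS replicate 1 the higher count was 7, and the lower count was 5 without ONS76 FSS replicate 1 and 4 without static ONS76 replicate 1. CDK1, the mitotic kinase, stood at 104, 103 and 101 CPM in DAOY under FSS against 111, 108 and 103 CPM in static DAOY, and at 40.6, 40.1 and 42.7 CPM in ONS76 under FSS against 67.9, 66.5 and 67.1 CPM in static ONS76. It fell in ONS76 and its groups overlapped in DAOY, so that the difference was 0.64 (SE 0.060). The ubiquitin-conjugating enzyme UBE2C differed by 0.57, and MKI67, the proliferation antigen Ki-67, by -0.43 (SE 0.059). Of 18 cyclin D, CDK and inhibitor genes 4 were higher and 3 lower, with CDKN1A at -0.50, which rose by 0.54 in ONS76. The higher count was 1 to 3 in every fit that left out 1 library, and 1 without DAOY FSS replicate 3, static DAOY replicate 3 or static ONS76 replicate 1. Of 21 ribosome biogenesis and MYC-linked genes 11 were higher in DAOY and 1 lower. Ornithine decarboxylase (ODC1), a polyamine enzyme, differed by 0.56 (SE 0.064), and 15 of the 21 fell in ONS76.

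Of 53 cytosolic ribosomal protein genes 4 were called, all lower. The lower count was 8 without DAOY FSS replicate 1 or ONS76 FSS replicate 1, 1 without static ONS76 replicate 2 and 0 without ONS76 FSS replicate 3, and with static ONS76 replicates 1 and 2 both left out 1 gene was higher and none lower. Of 30 nuclear respiratory chain genes 1 was higher and 2 lower, and of 26 proteasome genes 5 were lower, a share near the 19.3% of all members. Of 10 EMT factors 1, FN1, was lower. The 13 mitochondrially encoded mRNAs gave 6 calls higher in DAOY, but none without static ONS76 replicates 1 and 2, where 1 was lower. Leaving out 1 library gave 1 higher call (DAOY FSS replicate 1 or static ONS76 replicate 1) to 12 (static ONS76 replicate 3), and DESeq2 and limma on log2(TPM + 1) gave 0 with all libraries. MT-ATP6 had 0.40 over all libraries and -0.02 without static ONS76 replicates 1 and 2.

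Of the remaining lists, 18 mechanosensitive channel and calcium genes gave 2 higher and 6 lower calls, with the store sensor STIM1 at -0.63 and the calcium pump ATP2B4 at -0.72. Of 11 Eph and ephrin genes 5 were higher and 3 lower, with EPHB3 at -0.72. The higher count was 3 without DAOY FSS replicate 2, ONS76 FSS replicate 1 or static ONS76 replicate 1, and 2 were higher and 2 lower without static ONS76 replicates 1 and 2. Of 13 circadian genes 3 were higher and 3 lower, among them the clock output factor DBP at -0.67, though 1 was lower without DAOY FSS replicate 1 or static DAOY replicate 1. Of 24 lysosomal genes 2 were higher and 4 lower. Of 10 BCL2 family genes 3 were higher, MCL1 at 0.40 among them, and 2 lower. Of 9 MHC class I genes 1 was higher and 3 lower (5 without static DAOY replicate 2), and of 6 metallothionein and zinc genes 2 were higher and 1 lower. Hedgehog genes gave 1 call, GPR161 at -0.26, among 5 members, and the 4 cold-inducible RNA-binding genes gave 2 higher and 1 lower, RBM3 at 0.42 and CIRBP at -0.31 among them.

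**Figure D5:**
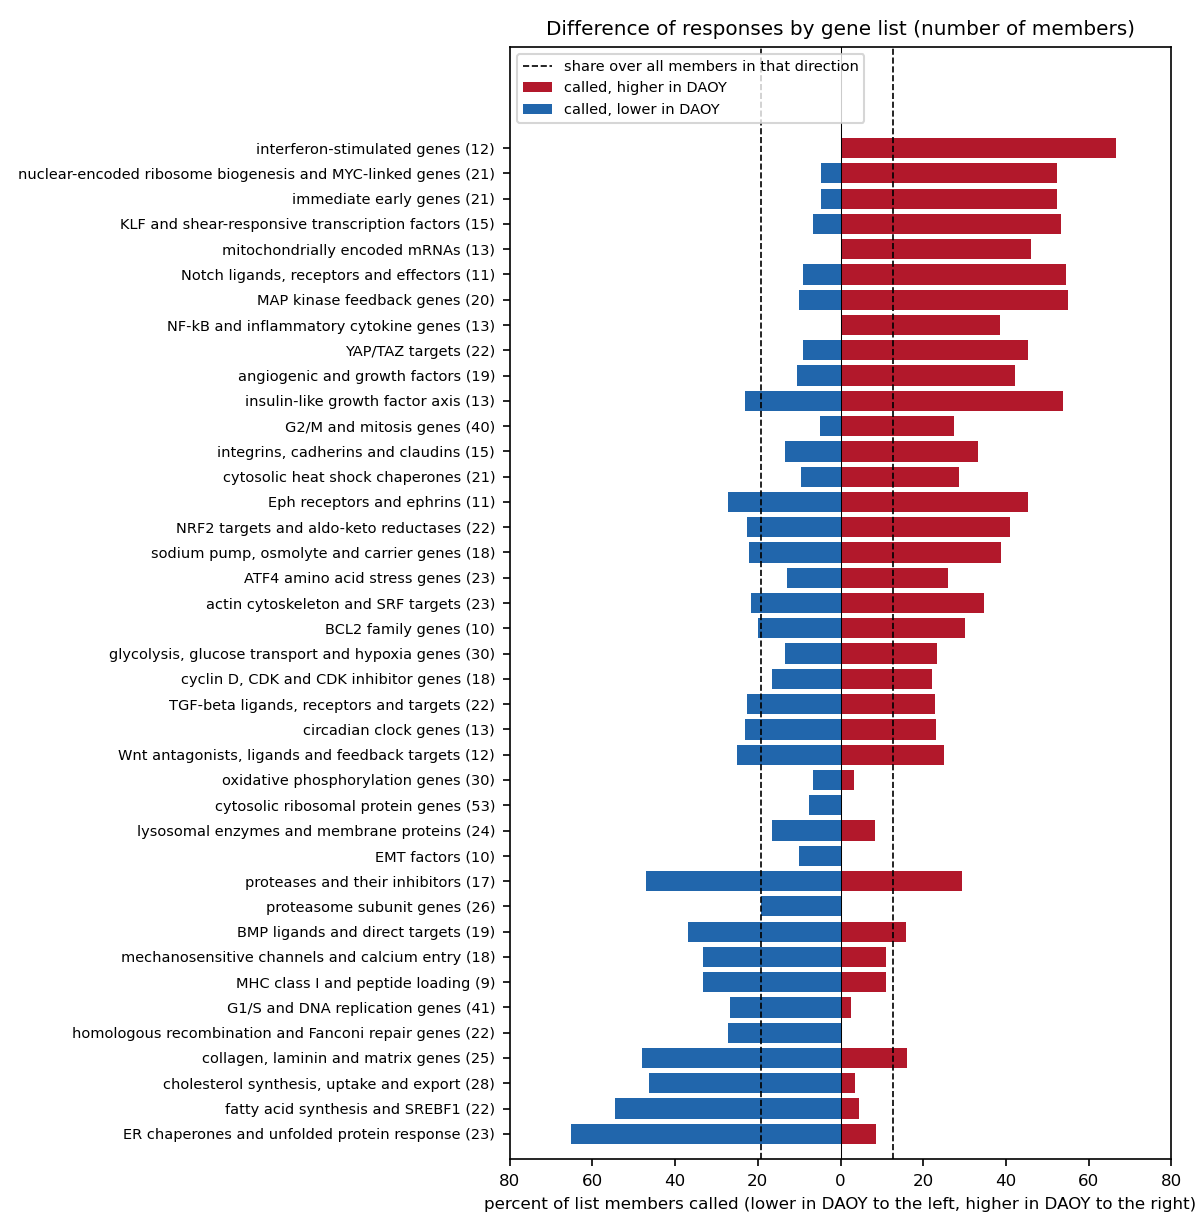
Percent of each gene list's members called higher in DAOY (red, to the right) and lower in DAOY (blue, to the left), with the number of members in brackets and dashed lines at 12.7% and 19.3%, the shares over all members. Interferon-stimulated genes head the red end and ER chaperones and fatty acid synthesis the blue end.

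Called differences were spread over the genome and over levels. The share called was between 23.2% and 36.7% on every numbered chromosome and 33.6% on chromosome X. It was 22.7% in members at 5 to 10 CPM and 38.8% in those over 100 CPM, and the median standard error of the difference was 0.14 in the first and 0.055 in the other. The median absolute difference of called members was 0.57 at 5 to 10 CPM and 0.25 over 100 CPM. The part of depth in these shares was not tested.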

How the data were processed

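RNA was measured in 12 libraries of DAOY and ONS76, 3 in each of 4 groups, as the titles say. The libraries were directional and polyA-selected, with paired-end sequencing, per the labels' protocols. The submitters' processing notes name HISAT2 2.2.1, GRCh38 and featureCounts. Neither annotation nor strand setting is given in the sources used here, so overlapping, antisense and near-identical genes may exchange reads. The authors deposited raw counts per gene and TPM values for the same genes.

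The count test was edgeR 4.0.16 (R 4.3.3): TMM-scaled library sizes, filterByExpr (19631 genes, 99.96% of counts), a quasi-likelihood model with 1 mean per group over all 12 libraries, and two-sided tests with Benjamini-Hochberg adjustment over all tested genes at 0.05. The contrast was (DAOY FSS minus DAOY static) minus (ONS76 FSS minus ONS76 static). A standard error is the absolute log2 difference divided by the square root of F. Fold changes carry edgeR's prior count of 0.125. CPM uses the TMM-scaled sizes. The common biological coefficient of variation was 4.87%, and since the labels do not say what separated the cultures, p-values cover the spread among these libraries, which may be technical. The edgeR step was tested on simulated data, where 50 genes per fold size changed in DAOY under FSS and no other gene responded. It recovered 52% of the 1.25-fold differences and 100% of those of 1.5-fold, 2-fold and 4-fold. Of 185 calls 9 were false (4.86%). Differences near 1.25-fold may thus be missed. The simulation called 185 of 19267 genes and the data 3740 of 19631, so a call needed a smaller unadjusted p in the simulation. The shares recovered there need not hold for the data.

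The members and the 44 gene lists were chosen with earlier results of these data known, and 1 list and some members of others are not reported here. Named genes, all with a symbol, were the 12 largest called differences per direction whose FSS and static libraries were apart in at least 1 line, the 6 per direction with the largest smaller-of-both opposite responses, 5 per direction that moved the same way, 6 alike in both lines and up to 4 per list by p, and other list members were named after their values were seen. Gene positions were taken from GENCODE 29 (GRCh38), where 9298 members were found by identifier. Promoters are from RefSeq, 1 per symbol and the first listed where there were several. Alternatives were DESeq2 1.42.0, limma 3.58.1 on log2 TPM, RLE and upper-quartile factors, other filters and member rules, replicate blocks and leaving out libraries.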

Additional observations from a re-analysis of the deposited data

Results flagged for a closer look

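The sign or size of the response differed between DAOY and ONS76, by a test of the difference itself, in 1190 members higher in DAOY and 1807 lower, and 137 and 255 members moved in opposite directions. Among the opposite responders that rose in DAOY and fell in ONS76, the difference was 2.54 for IGFBP3, 2.25 for DKK1, 2.29 for OASL, 1.67 for FST, 1.48 for CEBPD and 1.23 for PTPRH. Among those that fell in DAOY and rose in ONS76 it was -1.68 for COL4A6, -1.52 for ABCG1, -1.23 for PLK2, -1.07 for ST3GAL5, -0.95 for SEMA3C and -0.91 for SYNE2.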

How the results depend on the processing

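Members called higher in DAOY numbered 1009 to 1119 when each library was left out in turn, and those called lower 1601 to 1857. Calls of 2-fold or more were 30 to 37 higher and 12 to 21 lower in those fits, and opposite responses 104 to 143 and 196 to 275. Opposite responses were 84 and 143 without static ONS76 replicates 1 and 2 together. The counts of 2-fold calls were 20 higher and 8 lower in limma on log2(TPM + 1), 117 and 73 with members at 1 CPM or more, 15 higher with members at 10 CPM or more, and 15 and 9 with 5 CPM in all 4 groups; the change of member rule itself adds or removes low genes. For TPM + 1 the cause was not tested. MT-ATP6 went to -0.0216 and TPM1 to -0.37 without both static libraries. Of 209 named or listed genes with a called difference, 182 kept the call in every alternative where they were members and had an adjusted p. PTPRH, C1QTNF1, BMP6, CXCL8, EGR1, ZFP36 and ID2 had 23 such alternatives, as IGFBP3 did, against 25 for a gene that met every member rule. They thus lay near the CPM limit. The other member rules used the main fit, so a call could not change there. Many of these genes were named for the size or p-value of their difference in these same data. Higher calls were 39.7% of all calls, 45.2% with upper-quartile factors and 32.3% on TPM.

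Same-numbered libraries correlated by -0.111 to 0.193 (median 0.052) and differently numbered ones by -0.163 to 0.11 (median -0.023). The same-numbered median was the higher, though both medians were under 0.1 and the ranges overlapped. The labels do not say what a shared number marks, so the main fit did not take the numbers as pairing. With the replicate block, 1188 members were called higher and 1814 lower, and 2939 of the 2997 calls were shared. Depth was not varied. The standard error of the difference had a median of 0.14 at 5 to 10 CPM.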

Other observations

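The 5 members annotated as 5.8S ribosomal RNA copies were all called higher in DAOY, at a median difference of 0.87. They are near-identical copies in polyA libraries, so their counts are uncertain and were given as values alone. Of 103 long intergenic RNA members 20 were called higher in DAOY and 6 lower, which is 25.2% called against 32.0% of all members (12.7% higher and 19.3% lower).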
